A study of Lates calcarifer with 8 samples.

Results

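The 200 transcripts that varied most between animals of the same sex were followed in 8 brains of the Asian seabass (Lates calcarifer, or barramundi). They are 200 of 60080 array probes, or 0.818% of the 24463 probes that could enter the choice. Such a probe lay on 1 spot and was well above background and uniform on all 8 arrays. For every probe the log2 signal was taken relative to the 75th percentile of its array, and the mean of the 4 animals of the same sex was subtracted. Members were chosen by the size of the second-highest minus the second-lowest of the 8 centred values, which is called the spread below, and the 200 largest were taken. This measure leaves out the single highest and the single lowest value, but 1 animal far from the rest of its sex can still widen it, because that animal moves the mean that is subtracted. Because the same values chose the members, their spreads, and every contrast of animals within a sex, are a description and were not tested.

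All fish were 5-year-old adults. The ovaries of the 4 females were staged F3 and the testes of the 4 males M3 in the labels. No strain, treatment or shared allele is given in the labels. The RNA came from the whole brain with the pituitary attached, 1 array per fish, so a level mixes all cell types, and fewer cells of a type and less RNA per cell cannot be told apart. Each array measured Cy3-labelled RNA as spot brightness on a custom oligonucleotide design. Animals are numbered 1 to 4 within a sex in the order of deposit.

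In this species most fish mature first as males and later become females, so the same animal's brain and pituitary serve a testis first and an ovary later. The pituitary, which the brain controls, releases hormones that act on growth, stress responses, skin colour and the gonads. The files name the target of each probe only by a design number, written SBRGG with 5 digits. Of the 60080 targets, 0 matched an identifier in the reference table of 32906 seabass genes, so no member can be given a gene name or a role here, and the marker and pathway lists could not be applied. For the same reason the label "brain" was not checked against marker genes. Each target had 1 probe, so 0 members had a second probe of the same target.

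The 8 arrays formed 2 rows of 4 on 1 slide. The animals numbered 1 and 2 in each sex lay on slide row 1, and those numbered 3 and 4 on slide row 2. The labels' own animal numbers are, within each sex, smaller on row 1 than on row 2, so row and numbering cannot be told apart. The 75th percentile of signal ran from 93.1 on the array of female 2 to 128.6 on that of female 4. Between 59 and 136 spots were marked as non-uniform on the arrays of row 1, and between 4 and 31 on those of row 2.

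The members spread from 4.35-fold to 79.3-fold, with a median of 5.50-fold, against a median of 1.43-fold over all 24463 probes. Of the 200, 41 exceeded 8-fold and 12 exceeded 16-fold. The last members inside the limit were SBRGG_61525, SBRGG_13793 and SBRGG_06674, with spreads of 2.13, 2.12 and 2.12 on the log2 scale. The first probes outside it were SBRGG_56929, SBRGG_15490 and SBRGG_05954, at 2.12, 2.11 and 2.11, so the limit falls on a continuous slope. Members had a median log2 level of 1.72 against 0.26 over all 24463 probes, members included, and their mean levels ran from -1.02 to 10.93. A probe of wide spread had to be well above background on its lowest array too. The higher level thus follows in part from the filter and is not read as a trait of the members.

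The animal at the low end was mostly one of slide row 1. The lowest centred value fell on a row 1 array in 166 members (83.0%) and on a row 2 array in 34, whereas over all 24463 probes row 1 held the lowest value in 54.6%. Female 1 was lowest in 53 members (26.5%, against 12.9% of all 24463 probes), female 2 in 44 (22% against 15.4%), male 2 in 36 (18% against 12.3%) and male 1 in 33 (16.5% against 13.99%). At the high end stood row 2 in 141 members, against 47.9% of all probes. The animals most often highest were female 4, in 56 members (14.3% of all probes), and male 3, in 50 (11.6% of all probes). In 96 members the pair of animals with the lowest centred values was 1 female and 1 male of row 1 (48.0%, against 23.3% of all 24463 probes), and in 34 it was the 2 females or the 2 males of row 1 (17% against 6.77%). All 4 animals of row 2 lay above all 4 of row 1, after centring on sex, in 51 members (background 6.03%), and the reverse held in 4 (background 5.63%). The rule used this contrast, so nothing is read from these counts.

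Grouping the members by the correlation of their centred values, with average linkage and a tree limit of 0.3 on 1 minus Pearson's r, gave 34 sets. The 5 sets of at least 10 members held 115 of the 200, and 85 members fell into 29 smaller sets, 7 of them with 1 member. These correlations are over 8 arrays shared by all members, and they are descriptive.

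**Figure D1:**
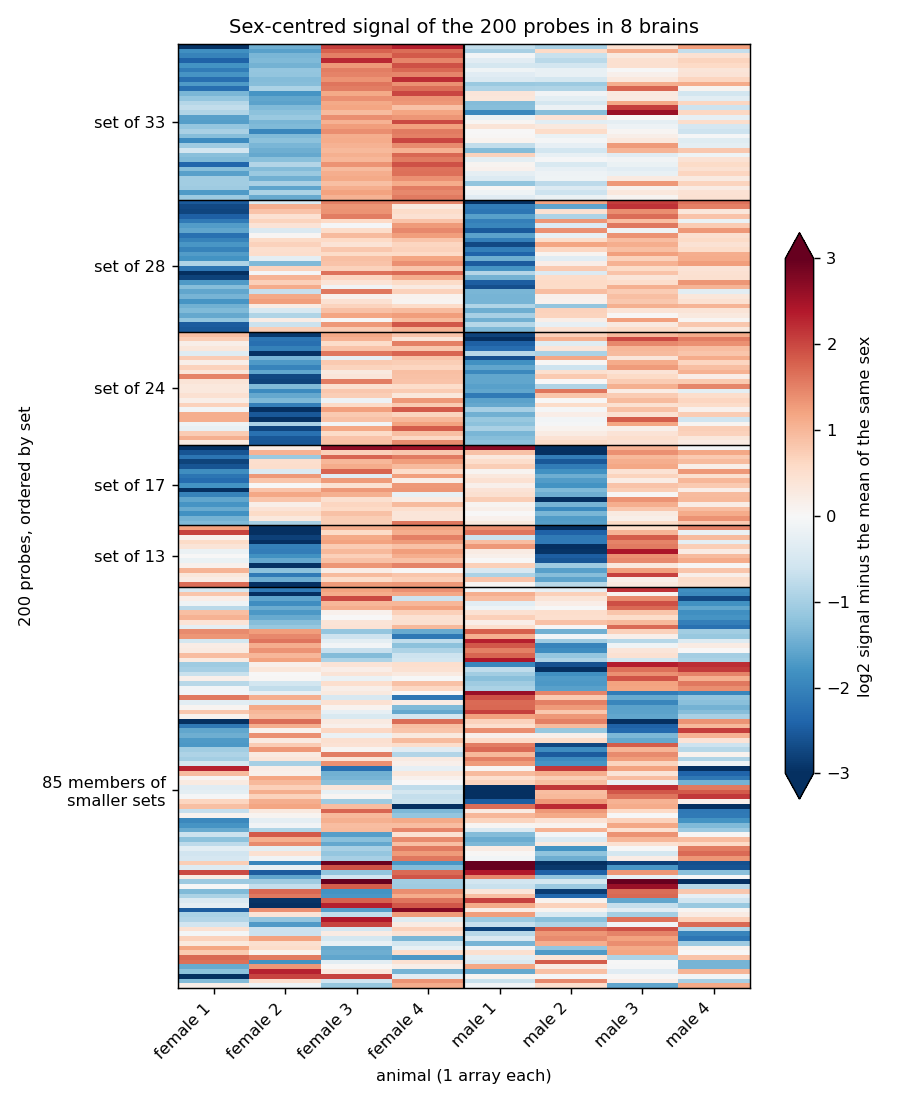
Sex-centred log2 signal of the 200 members (rows, ordered by set) in the 8 animals (columns, females left of the line, 1 array each); blue is below and red above the mean of the same sex, and colours stop at 3 and -3. The set of 33 is blue in females 1 and 2 and red in females 3 and 4, and each of the next 4 sets is blue in 1 female and 1 male of slide row 1.

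The largest set, with 33 members, separated the females into 2 pairs. In 33 of 33 members females 3 and 4 both lay above females 1 and 2 (background 23.3%, a contrast the rule used). Females 3 and 4 exceeded females 1 and 2 by a median of 6.68-fold, from 4.03-fold to 21.1-fold. The mean centred values of the set were -1.52 and -1.34 on the log2 scale in females 1 and 2, and 1.28 and 1.57 in females 3 and 4. The males were at -0.38, -0.34, 0.48 and 0.24 around their own mean. Males 3 and 4 exceeded males 1 and 2 by a median of 1.45-fold, and all of males 3 and 4 lay above males 1 and 2 in 17 of 33 (background 25.5%). Within a pair the females were close, with a median difference of 0.50 between females 1 and 2 and of 0.30 between females 3 and 4 (log2, absolute).

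SBRGG_07711 is the member closest to the mean of this set. Its log2 level was -1.52, -1.14, 1.58 and 2.20 in the females and -0.93, -0.94, 0.07 and 0.20 in males 1 to 4. The 2 low females thus lay under every male, and the 2 high females above every male. Females averaged 0.28 ± 1.88 and males -0.40 ± 0.62 (SD, n = 4 each). Its spread was 2.72 on the log2 scale, and 1.83 with normexp background correction.

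The place of this set in the list depended on the 4 females together, which follows from its form and the rule. On average 2 females were low, 2 were high and the males lay between. Leaving out 1 female therefore tends to make a male second-lowest or second-highest, so the counts are a description. Ranked without female 1, only 8 of the 33 were among the 200 probes of largest spread, and without female 2, 3 or 4 it was 10 in each case. Without any 1 of the males, 31 to 33 of the 33 were. When a probe needed to be well above background on only 4 of the 8 arrays, 3 of the 33 were in the list. Over the whole list, 129 of the 200 remained without female 1, 126 without female 2, and 132 without male 1.

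Some members of this set had consecutive target numbers, with spots that lay far apart on the array. SBRGG_09552 was at 2.61, 3.17, 5.86 and 5.83 in females 1 to 4 and at 4.82, 4.93, 5.31 and 5.58 in males 1 to 4. SBRGG_09553 was dimmer, at -1.44, -0.49, 2.19 and 2.38 in the females and 1.28, 1.18, 1.40 and 1.78 in the males. Their centred values correlated at r = 0.992 over the 8 arrays, with 169 spot rows between them. In both, the males stayed within a narrow band that lay below the 2 high females and above the 2 low ones. SBRGG_06475 (0.67, 2.13, 5.67 and 5.93 in females, 2.85, 2.63, 4.07 and 4.84 in males) and SBRGG_06476 (-0.58, 0.53, 4.12 and 3.32, then 1.52, 1.04, 2.34 and 2.53) correlated at r = 0.977 with 352 spot rows between them. What consecutive numbers mean in this design is not given in the sources used here. These pairs were chosen after their values were seen, for an r over 0.9. Members of a set correlate by construction, with a median r of 0.885 in this set, so the r of each pair is a description. Over all 178 pairs of consecutive numbers that held a member, the median r was 0.01 and 6 exceeded 0.9 (3.37%). Of these, 3 were among the 27 pairs with a member of the set of 33, whose median r was 0.15. Other members of this set ran opposite to a neighbour in number. SBRGG_14462 had r = -0.913 with SBRGG_14463, and SBRGG_44595 had r = -0.938 with SBRGG_44594. In the 4 sets described next, 1 of 75 pairs exceeded 0.9 (1.33%). Over all 11717 consecutive pairs of probes that met the filter, the median r was 0.10 and 1.83% exceeded 0.9, and between numbers 1000 apart 0.833% did.

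The next 4 sets, with 28, 24, 17 and 13 members, had one form in common: on average, 1 female and 1 male of slide row 1 were far below the other 6 animals. Between them these sets held 82 members and covered the 4 pairings of females 1 and 2 with males 1 and 2. Because the rule leaves out the single lowest value, it favours probes with 2 low animals over probes with 1. The form thus follows in part from the rule and is a description. The other 6 animals were not level. In 28 of the 82 members all of row 2 lay above all of row 1 after centring on sex (background 6.03%, a contrast the rule used). The set of 28 was low in female 1 and male 1, at mean centred values of -1.95 and -1.87, while the other animals ran from 0.26 to 0.94. The set of 24 was low in female 2 (-2.17) and male 1 (-1.75). Female 1 (-2.27) and male 2 (-2.02) were low in the set of 17, and female 2 (-2.51) and male 2 (-2.15) in the set of 13. Unlike the set of 33, these sets did not hold females 1 and 2 together: the median difference between the 2 females was 2.41, 2.63, 2.39 and 2.48 on the log2 scale in the 4 sets, and between females 3 and 4 it was 0.37 or less. Between males 3 and 4 the median difference ran from 0.34 in the set of 24 to 0.82 in the set of 13.

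The member closest to the mean of the set of 24, SBRGG_05972, shows this form plainly. It was at 4.63, 0.82, 4.85 and 4.58 in females 1 to 4 and at 1.07, 4.56, 4.83 and 4.95 in males 1 to 4. Except for female 2 and male 1, all animals lay between 4.56 and 4.95, far above both low animals, and the spread was 14.8-fold, or 2.12-fold without female 2. SBRGG_43121, closest to the mean of the set of 28, was at 1.49, 4.06, 4.09 and 4.33 in the females and 1.72, 4.33, 4.70 and 4.34 in the males, with female 1 and male 1 low. In the set of 17, SBRGG_06565 was at 5.80, 9.08, 9.58 and 9.83 in the females and 9.32, 6.25, 9.88 and 9.75 in the males, with female 1 and male 2 low. SBRGG_17321, closest to the mean of the set of 13, was at 3.05, -0.60, 3.68 and 3.75 in the females and 2.70, -0.33, 3.26 and 1.49 in the males, with female 2 and male 2 low.

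**Figure D2:**
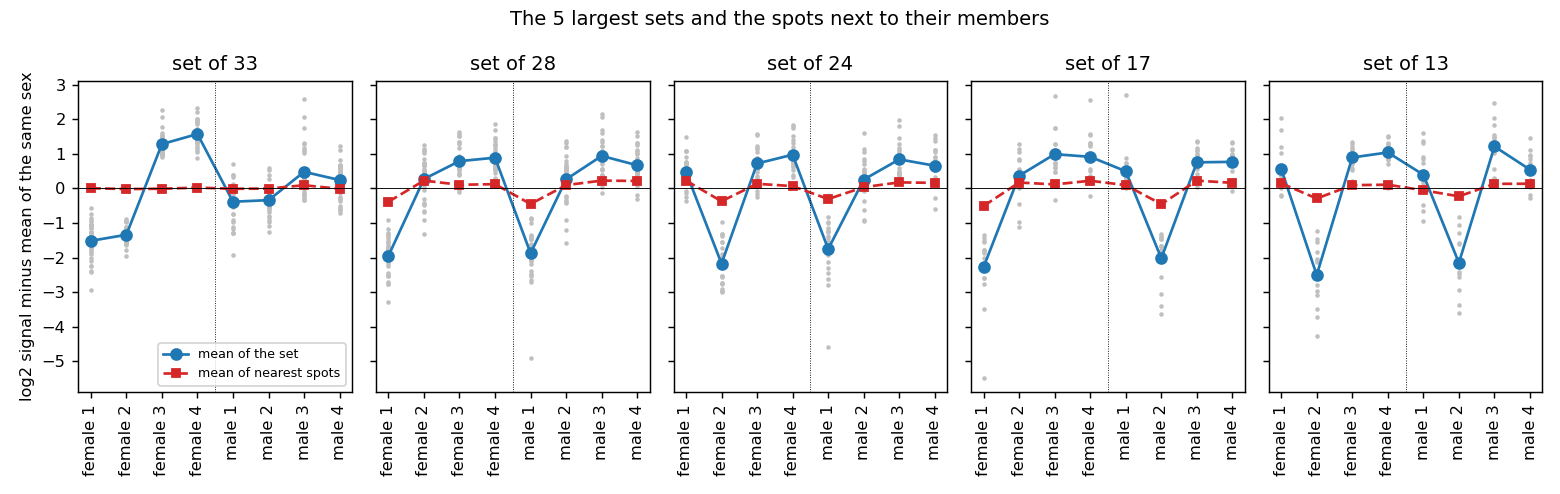
Mean centred log2 signal of each of the 5 largest sets by animal (blue), its single members (grey points) and the mean, over the members, of the median centred value of their 8 nearest spots (red squares). Nearest spots stay near 0 in the set of 33 and dip in the same 1 female and 1 male in the other 4 sets.

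The spots printed next to the members were examined because they measure other transcripts at the same place of each array and were not used by the rule. For each member the median centred value of the 8 nearest usable spots was taken on every array. Of the 200 members, 83 (41.5%) correlated with their nearest spots at r over 0.7 across the 8 arrays, against a background of 19.2% of all 24463 probes. In the 4 sets low in 1 female and 1 male, 54 of 82 did so (65.9%) with a median r of 0.78. In the set of 33 it was 3 of 33 (9.09%), with a median r of 0.03. The spread of the nearest spots had a median of 0.47 in those 4 sets, 0.24 in the set of 33 and 0.25 over all 24463 probes (log2). In the set of 28 the nearest spots averaged -0.39 on the array of female 1 and -0.45 on that of male 1, the same arrays on which its members were low. In the set of 33 the mean of the nearest spots lay between -0.02 and 0.09 on every array. The difference between the sets was not tested, since the sets were formed from the values themselves.

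When the median of the nearest spots was subtracted on each array, the median spread went from 2.50 to 2.11 in the 4 sets, and from 2.41 to 2.37 in the set of 33 (log2). After this subtraction, 51 of the 82 and 29 of the 33 were still among the 200 probes of largest spread, and 141 of all 200 were. Low probes also lay together on an array. Over all 24463 probes, a centred value under -1 was found for 396 to 734 probes on the arrays of row 1 and for 89 to 302 on those of row 2. On the arrays of row 1, 14.2% to 17.2% of the spots nearest to such a probe were also under -1, which is 5.11 to 9.53 times the share among all usable spots. On row 2 this ratio was 0.744 for female 3, 1.93 for female 4, 18.7 for male 3 and 10.2 for male 4. The local background around low members was that of the array, with medians of 21 to 23 for them and 21 to 23 for all probes. The part that place on the array has in the members' spread was not tested beyond these values.

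**Figure D3:**
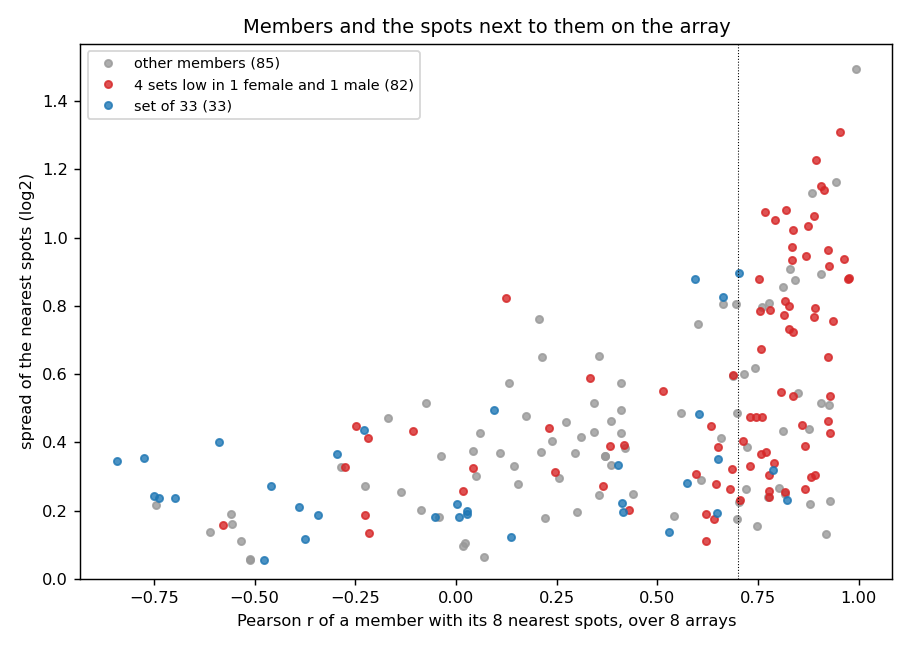
Each point is 1 of the 200 members: the horizontal axis is its Pearson r with the median of its 8 nearest spots over the 8 arrays, the vertical axis the spread of those nearest spots (log2), and the dotted line marks r = 0.7. Of the 82 members of the 4 sets low in 1 female and 1 male, 54 lie right of the line, and of the set of 33 only 3 do.

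The 10 members of largest spread differed in form. SBRGG_37532, in the set of 17, had the largest spread of all, 79.3-fold. It was at -0.42, 5.31, 7.74 and 7.60 in the females and at 6.65, 0.32, 4.96 and 3.88 in males 1 to 4, so female 1 and male 2 were low and the remaining animals also varied. Without female 1 its spread was 6.00-fold. SBRGG_06691 was bright in male 1 (11.07), while the females were at 2.25, -0.44, 4.48 and -0.22 and the other males at -0.41, -0.18 and -0.02. It shared a set of 2 with SBRGG_14093, at 8.32 in male 1 and at most 0.93 in any other animal. SBRGG_14092, the next target number and not a member, was likewise at 6.97 in male 1 and between 0.70 and 2.40 elsewhere (r = 0.950 with SBRGG_14093, carried by that 1 animal). The nearest spots of these 2 members did not follow them, at r = 0.02 for SBRGG_06691 and -0.29 for SBRGG_14093.

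Of the other members with the largest spreads, SBRGG_36774 was low in female 1 and male 3. Its levels were -1.11, 4.19, 2.77 and 4.19 in the females and 4.26, 5.09, 0.01 and 4.90 in the males. SBRGG_19418, in the set of 13, was at 3.05, -1.65, 2.94 and 3.05 in the females and 4.05, -0.68, 3.24 and 4.15 in the males. SBRGG_41543 was low in female 4 and male 4, both on row 2, at 4.19, 4.48, 4.23 and 0.28 in the females and 4.64, 5.20, 4.09 and -2.03 in the males. Low values were therefore not limited to row 1. SBRGG_48841 divided the animals 4 against 4, at 5.15, 0.67, 1.996 and 4.86 in the females and 5.78, 0.97, 4.72 and 2.15 in the males. In SBRGG_03203 the levels were graded, at 2.67, 0.58, -1.89 and 0.13 in the females and 1.30, 3.37, 2.45 and -2.12 in the males.

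The spread of many named members was smaller with 1 array left out. For 37 members named by rule or for their target numbers, the array that mattered most to each was left out. In 30 the spread then fell below 2.12 on the log2 scale, the smallest in the list. That limit is for all 8 arrays, and the lowest of 8 spreads over fewer arrays is set against it. A fall is thus partly built in, most of all for members near the limit, and the count is a description. SBRGG_14093 went from 4.50 to 1.17 without male 1, and SBRGG_34988 from 4.28 to 0.57 without female 3 (log2).

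**Figure D4:**
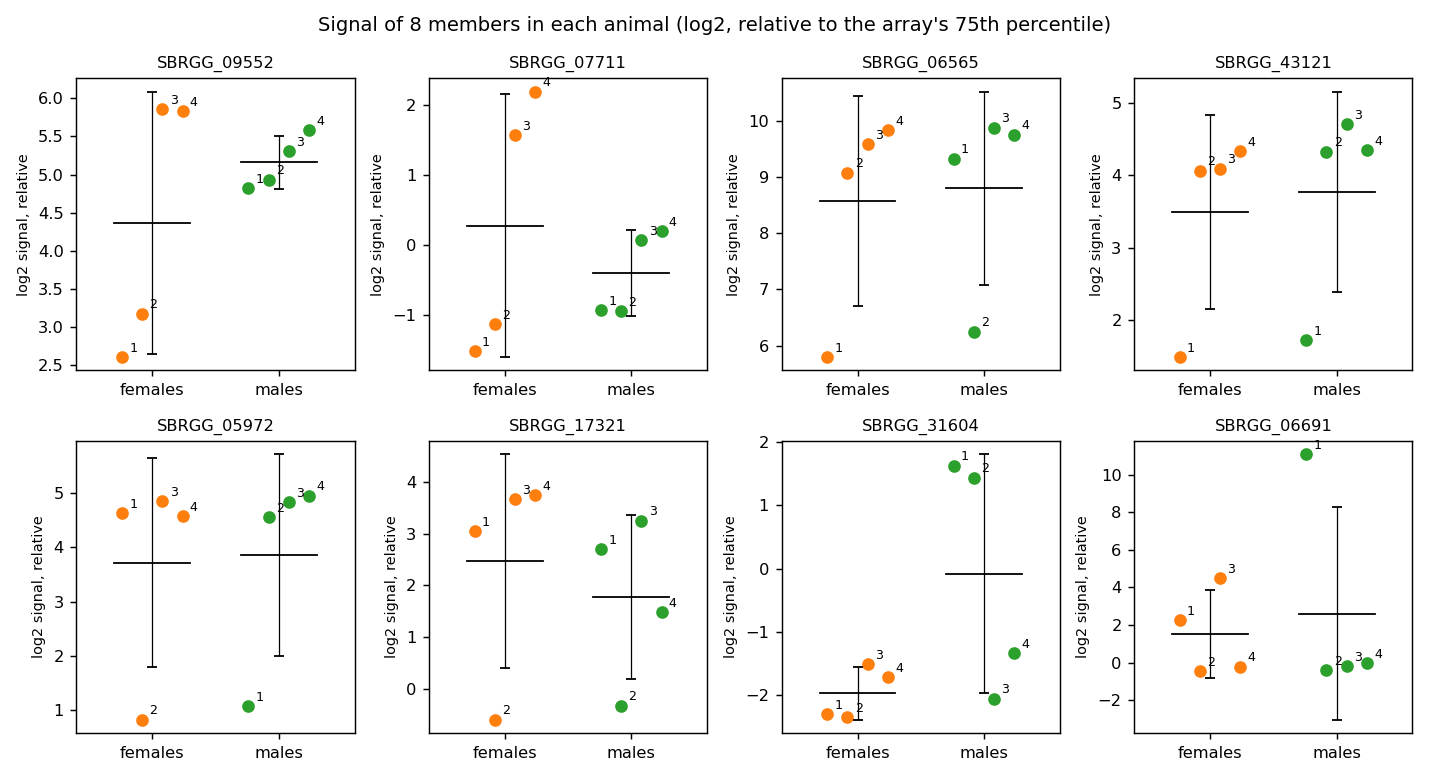
Log2 signal relative to the 75th percentile of the array for 8 members in each animal (points, numbered 1 to 4 within females and males), with the mean and SD of each sex (n = 4; horizontal line and bars). SBRGG_09552 and SBRGG_07711 belong to the set of 33; SBRGG_43121, SBRGG_05972, SBRGG_06565 and SBRGG_17321 each have 1 low female and 1 low male; SBRGG_31604 is high in males 1 and 2 alone and SBRGG_06691 highest in male 1.

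The largest of the smaller sets, with 9 members, was also low in 1 female and 1 male, but the male was of row 2. Female 2 was at a mean centred value of -1.75 and male 4 at -1.97. Of its 9 members, 1 (11.1%) followed its nearest spots at r over 0.7, and the median r was 0.54. Among the other smaller sets, 2 sets of 6 divided the males more widely than the females. In the first, males 1 and 2 were low, at mean centred values of -1.17 and -2.09, and males 3 and 4 were high, at 1.62 and 1.64, a median difference of 7.52-fold. The females went the same way by a median of 1.67-fold. Females 3 and 4 both lay above females 1 and 2 in 4 of the 6 members (background 23.3%). The nearest spots followed these members at a median r of 0.87, with a median spread of 1.02. It held SBRGG_32340, one of the brightest members, at 9.90, 11.12, 11.38 and 11.47 in the 4 females and 7.34, 6.68, 11.67 and 11.52 in males 1 to 4. Its spread went from 4.18 to 2.60 when the nearest spots were subtracted. The member of highest signal, SBRGG_32342, lies 2 target numbers away and was at 9.46, 11.65, 11.71 and 11.73 in the females and 8.32, 10.80, 11.96 and 11.81 in the males, which put it in the set of 28.

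The second set of 6 ran the other way, with males 1 and 2 at 1.87 and 1.19 and males 3 and 4 at -1.73 and -1.34. Its females were at 0.36, 0.58, -0.05 and -0.89. Its nearest spots did not follow it, with a median r of -0.25 and 0 of 6 members over 0.7. SBRGG_31604, the dimmest member of the list, was at 1.62 and 1.43 in males 1 and 2 and between -2.34 and -1.34 in the other 6 animals, females included. SBRGG_34513, named after its values were seen, was at 3.40 and 2.28 in males 1 and 2 and between -1.60 and -1.07 elsewhere. SBRGG_19750, also named after its values were seen, was instead low in males 3 and 4 (-1.07 and -0.88) and between 1.07 and 3.52 in all other animals. The same set therefore holds transcripts high in 2 animals and transcripts low in 2 others.

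Levels split by 1 wide gap were more frequent in the list than over all probes. In 34 members (17%) the largest gap between neighbouring levels of the 8 animals was over 4-fold and over 50% of the range, against 1.39% of all 24463 probes. Since the rule asks for a wide spread, this share is a description. Among the 34, a single animal stood apart on the low side in 11 and on the high side in 3. Over all 24463 probes these counts were 272 and 41. The gap left 2 animals on the low side in 12 members, against 14 of all 24463 probes. A probe with a gap of that form thus nearly always entered the list, and the count follows from the rule. In 10 of the 12 the pair was 1 female and 1 male of slide row 1. No share on the same measure is at hand for all probes. By centred values, with no gap asked for, such a pair was lowest in 23.3% of all 24463 probes and 48% of the members. In 4 members, and in 4 of all 24463 probes, 2 animals stood above the other 6. Those pairs were males 1 and 2 (SBRGG_31604 and SBRGG_34513), females 2 and 4 (SBRGG_49769, named after its values were seen), and female 3 with male 3 (SBRGG_34988). SBRGG_34988 was at 5.81 in female 3 and 6.18 in male 3, between 1.37 and 1.56 in 5 others, and at -1.26 in male 4. A pair of members with consecutive numbers, SBRGG_14082 and SBRGG_14083, had females 1 and 3 and male 2 at the low end. SBRGG_14082 was at 2.54, 5.07, 1.74 and 4.59 in the females and 4.43, 1.17, 5.25 and 3.28 in the males. SBRGG_14083 was at 2.84, 5.91, 2.38 and 5.56 and then 5.19, 1.99, 6.50 and 5.65, and their centred values correlated at r = 0.956 with 194 spot rows between them.

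The profile of the set of 33 was also looked for outside the list. Among the probes that met the filter and were no members, 469 (1.93%) correlated with the mean of this set at r over 0.9, with a median spread of 0.89 on the log2 scale. For the sets of 28, 24, 17 and 13 the counts were 186 (0.77%), 193 (0.80%), 143 (0.59%) and 123 (0.51%). A smaller set, of 4 members and lowest in male 1, reached 408 (1.68%), so a high count was not particular to the set of 33. Of the 469, 12.2% followed their nearest spots at r over 0.7, and of the counts for the next 4 sets 30.1% to 44.6% did (background 19.2%). Probes printed on 6 spots spread over the array, which the rule left out, gave a further view. Of 257 such probes that were well above background on every spot, 10 followed the set of 33 at r over 0.9, and 1, 2, 7 and 7 followed the next 4 sets. The set of 6 that was low in males 1 and 2 was followed by 12. Closest to the set of 33 was SBRGG_06897 (r = 0.996), at 7.19, 7.24, 7.80 and 7.90 in the females and 7.94, 7.88, 8.13 and 8.08 in males 1 to 4. Females 1 and 2 were again below females 3 and 4, but its spread was only 1.47-fold. The widest of the 10, SBRGG_18606, reached 2.07-fold.

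Females and males were also compared in the members. The comparison of 4 females with 4 males does not enter the rule through the sex means, although the within-sex spread by which the test divides does. limma's moderated test over 32851 probes called 0 of the 200 members between the sexes at an adjusted p under 0.05 (background 0.0761%), and the lowest adjusted p of a member was 0.939. At an unadjusted p under 0.05 it found 3 members (background 4.99%). No member had all females above all males (0, background 1.61%) or all males above all females (0, background 2.22%). The absolute difference between the sex means had a median of 0.52 on the log2 scale, against 0.17 over all 24463 probes. Of the members, 98 were higher in females and 102 higher in males. A wide spread within 4 animals by itself widens the difference of 2 means, so the 0.52 is not read as a sex difference. At a background of 0.0761%, few calls could fall among any 200 probes, so the 0 says little about the members. The members were chosen for a large within-sex spread, by which the test divides. Neither the 0 nor the 3 is therefore read as a lack of difference. SBRGG_31604 averaged -1.96 ± 0.42 over the females and -0.09 ± 1.88 over the males (SD, n = 4 each), and limma gave it an adjusted p of 0.939.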

How the data were processed

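Brain RNA of 4 female and 4 male Asian seabass was measured on 8 single-colour arrays. Spot intensity, local background and quality flags were deposited by the authors. Per the file headers, the software that read them was Agilent Feature Extraction, version 10.7.1.1. The pixel standard deviation of the local background is likewise a scanner signal, per the file headers. A second deposited table gives log2 values made by the authors, and Partek is named in the submitters' processing notes. That table was used only as an alternative.

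From the processed intensity, log2 values were taken minus the log2 75th percentile of each array, with no correction between arrays beyond this. Control spots and probes printed on 6 spots were left out of the list. The 8 spots nearest to a member were compared with it by Pearson's r. Sexes were compared with limma 3.58.1 (R 4.3.3) over 32851 probes, with Benjamini-Hochberg adjustment, after a test on simulated data. Other values were computed with Python 3.11.15, numpy 2.4.6, pandas 2.3.3 and scipy 1.17.1.

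The members and lists were chosen with earlier results of these data known. Members were named as the 10 of largest spread, the 3 closest to the mean of each set of at least 10, those at the limit, and the 3 brightest and 3 dimmest, of which the text gives a part. All names outside this rule were chosen after their values were seen, also where no mark stands beside them. The planned comparison of probes of one target could not be made, since each target had 1 probe. Alternatives covered the background correction, scaling, filters, measure of spread, grouping and each array left out in turn. Animals are separate fish, and the precision is limited by their number.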

Additional observations from a re-analysis of the deposited data

Results flagged for a closer look

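In the 25 members whose levels by animal are given above, 50 groups of 4 animals were searched for 1 animal far from the other 3 of its sex (Dixon's 95% limit for 4 values). It was found in 14 of the 50. Chance marks about 1 group in 20 where samples are not selected, but these members were chosen for variation within a sex, so the count is not read against that rate. All values are log2 levels.

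Low females were found in the following members. Female 2 stood at -1.65 in SBRGG_19418 (others 2.94 to 3.05), at 0.82 in SBRGG_05972 (others 4.58 to 4.85) and at -0.60 in SBRGG_17321 (others 3.05 to 3.75). Female 1 stood at 1.49 in SBRGG_43121 (others 4.06 to 4.33) and at 9.46 in SBRGG_32342 (others 11.65 to 11.73). Female 4 stood at 0.28 in SBRGG_41543 (others 4.19 to 4.48).

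Animals far above the others were male 1 at 11.07 in SBRGG_06691 (others -0.41 to -0.02) and at 8.32 in SBRGG_14093 (others -1.82 to -0.66), and female 3 at 5.81 in SBRGG_34988 (others 1.53 to 1.56). Male 1 was low in SBRGG_43121, at 1.72 (others 4.33 to 4.70), and in SBRGG_05972, at 1.07 (others 4.56 to 4.95). Male 2 was low in SBRGG_06565, at 6.25 (others 9.32 to 9.88). Male 3 was low in SBRGG_36774, at 0.0066 (others 4.26 to 5.09), and male 4 in SBRGG_41543, at -2.03 (others 4.09 to 5.20).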

How the results depend on the processing

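Of the 200 members, 191 were also chosen with quantile normalization, 193 with median scaling, 191 from the authors' table and 135 with normexp background correction. Fewer were shared when a probe needed to be well above background on only 4 of 8 arrays (60), with the pooled within-sex standard deviation as the measure (129), with highest minus lowest (99) and with centring on slide row too (108). Leaving out each array in turn shared 126 to 160. The largest set held 33 members, and 21 with complete linkage, 54 after the 8 nearest spots were subtracted (chosen after seeing the data), and 31 to 64 with each array left out. It was not always the same set: of the 33, the largest set held 8, 10, 0 and 1 without females 1 to 4, 23 to 33 without a male, 3 with the filter of 4 of 8 arrays, 2 with Spearman's rho and 15 with normexp. With Spearman's rho 18 of the 33 stayed together in another set, of 29 members. Without female 3 the most that stayed together was 8, in a set of 13, and without female 4 it was 5, in a set of 18. Members following their nearest spots numbered 83, but 47 with the filter of 4 of 8 arrays. Sex calls were 0 in every alternative run, slide row or column as a block included. The cause of these shifts was not tested. For 40 named probes, 56 of 320 spreads with 1 array left out moved by over 1 SD between replicates. Under the other alternatives 0 of 280 did, a wide tolerance for probes that vary this much. The alternatives that changed only a filter left every value of a probe as it was. Their 40 values each could therefore not move, and the 0 is a description. No paired analysis was possible because the labels give the sexes no shared animal numbers. A probe that was not well above background on every array was kept out of the list. That flag does not show that a transcript was present in every brain. With normexp, spreads of the 3 dimmest members (SBRGG_31604, SBRGG_05210 and SBRGG_24321) went from 2.77, 2.19 and 2.31 to 1.80, 1.16 and 1.26 (log2). Those of the 3 brightest (SBRGG_32342, SBRGG_32340 and SBRGG_18213) went from 2.76, 4.18 and 2.36 to 2.79, 4.15 and 2.31. Members closest to the mean of a large set also changed. SBRGG_07711 went from 2.72 to 1.83, SBRGG_52966 from 2.81 to 1.61, SBRGG_26022 from 2.94 to 1.51 and SBRGG_17321 from 3.39 to 2.68. SBRGG_43121, SBRGG_05972 and SBRGG_06565 changed less, from 2.84, 3.88 and 3.63 to 2.86, 3.56 and 3.82. All 8 arrays shared 1 slide, and slide row cannot be told apart from the order of animal numbers.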
